A study of Mus musculus with 18 samples.

Results

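Basal and estrogen receptor negative (ER-) luminal cells sorted from the mouse mammary gland at puberty were compared gene by gene. Members of the comparison were all genes with a deposited value of at least 10 in at least 2 of its 4 libraries, 2 of basal and 2 of ER- luminal cells. This gave 18648 genes of 46257 gene IDs in the table, and of 22315 genes tested over all libraries. At the threshold, 602 genes had a second-highest value of 11 among the 4 libraries and 775 had one of 9. Of the 27609 IDs that did not pass, 17619 were at 0 in all 4 libraries.

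The whole study covers basal, ER- luminal and estrogen receptor positive (ER+) luminal cells at puberty, in adults and at pregnancy, as 9 groups of 2 libraries, 18 in all. All mice, controls included, are labelled ERrtTA/TetOCre/rosaYFP, a genotype with a tetracycline-controlled Cre and a yellow fluorescent reporter at the Rosa locus. No source used here states the sorting gates, the age in weeks or whether doxycycline was given. The cell type label of both puberty basal samples reads "BC luminal cells" while their titles read BC, so the identity was checked on markers below. The labels do not say whether the 2 libraries of a group came from separate animals, so the spread behind each p-value may be technical.

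The mammary duct has an inner layer of luminal cells and an outer layer of basal cells that rests on the basement membrane. Basal cells are mostly myoepithelial: they contract on oxytocin, lay down basement membrane and hold the mammary stem cell activity seen on transplantation. ER- luminal cells include the progenitors of the milk-secreting alveolar cells and depend on the transcription factor ELF5. At puberty, ducts elongate from terminal end buds, and signals such as WNT, Notch, FGF and EGF-family ligands pass between the layers.

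Values below are scaled reads, that is deposited values on a library total of about 20000000. Fold changes are log2 of value + 1, basal over ER- luminal, with the standard error after ±. A gene is called where its limma p, adjusted by Benjamini-Hochberg over 22315 genes, is under 0.05. Estimated depth was 9507925 to 11292227 reads in genes in the 4 libraries, and 1 read was worth 1.75 to 2.09 scaled reads. Levels were ranked alike within groups (Spearman 0.971 for the basal pair and 0.969 for the ER- pair, across genes), and less so between groups (0.890 to 0.926). In bulk RNA, fewer cells of a type and less RNA per cell cannot be told apart.

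The marker genes of the 2 layers separated the groups. Keratin 5 (Krt5, chromosome 15, 101707070 to 101712898, GRCm38), a filament protein of basal cells, was at 18170 and 14740 in basal libraries 1 and 2, and at 320 and 83 in ER- luminal libraries 1 and 2. The means were 16455 ± 2425 and 202 ± 168 scaled reads (SD, n = 2), a log2 difference of 6.64 ± 0.72 (limma adjusted p = 9.44e-05). Its partner keratin 14 (Krt14, chromosome 11, 100203162 to 100207548) was at 22914 and 26552 against 447 and 157, a difference of 6.53 ± 0.62. Trp63 (chromosome 16, 25683763 to 25892102), the transcription factor p63 that basal identity requires, was at 10664 and 10207 against 261 and 58, a difference of 6.39 ± 0.72. Every basal library lay far above every ER- luminal one for these genes.

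Kit (chromosome 5, 75574916 to 75656722), the stem cell factor receptor found on luminal progenitors, ran the other way at 558 and 1277 in basal and 29598 and 35158 in ER- luminal libraries. Its log2 difference was -5.25 ± 0.50 (limma adjusted p = 3.54e-05). Elf5 (chromosome 2, 103411688 to 103450989) was at 142 and 343 against 9699 and 10048, a difference of -5.48 ± 0.68. Of 18 basal markers, 18 were called higher in the basal libraries, and of 15 ER- luminal markers, 13 were called lower. Over all members, 10.4% were called higher and 10.7% lower. Some of the basal marker calls were lost when single libraries were left out. The 2 ER- markers that did not pass were the casein Csn2, at 21 and 53 against 82 and 65, and Rspo1. Rspo1 went the other way, with a log2 difference of 1.78. The libraries titled BC thus carried basal markers and low levels of most ER- luminal ones, whatever the cell type label says.

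**Figure D1:**
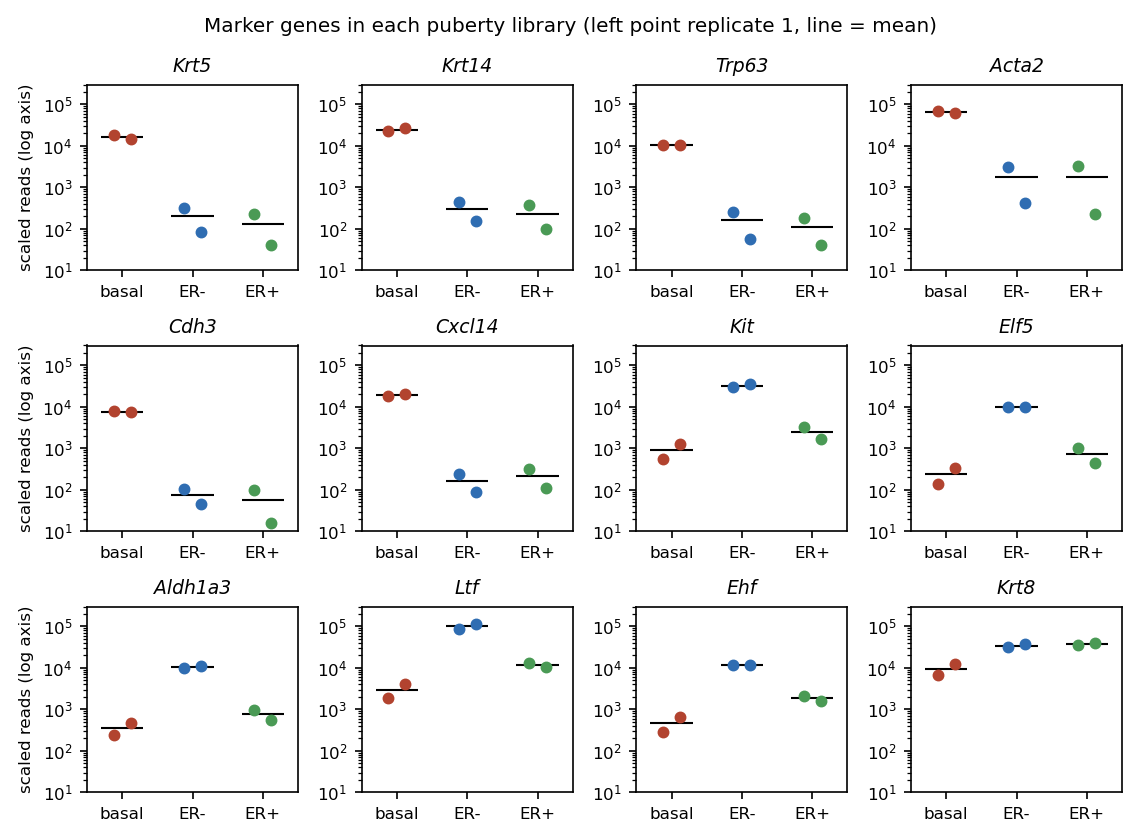
Scaled reads (log axis) of 12 marker genes in each of the 6 puberty libraries, with basal in red, ER- luminal in blue and ER+ luminal in green. Points are libraries, replicate 1 on the left, and lines are group means; Krt5, Krt14, Trp63, Acta2, Cdh3 and Cxcl14 are high in basal libraries, and Kit, Elf5, Aldh1a3, Ltf and Ehf are high in ER- luminal ones, while Krt8 is high in both luminal groups.

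Of the 18648 genes, 1936 (10.4%) were called higher and 1991 (10.7%) called lower in basal cells, 3927 (21.1%) in all. Counts for the gene lists below are to be read beside these shares. The median difference over all members was -0.02. Among calls, 923 of those higher and 684 of those lower differed over 4-fold, and 292 and 129 over 16-fold. Of the genes higher in basal cells 1830 were protein-coding, 24 lincRNAs and 18 antisense genes, and of those lower 1584, 63 and 88. Without basal library 1 the count of calls was 2215, and without ER- luminal library 2 it was 2098. The libraries of the groups did not overlap in 12671 members (67.9%), many more than were called.

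**Figure D2:**
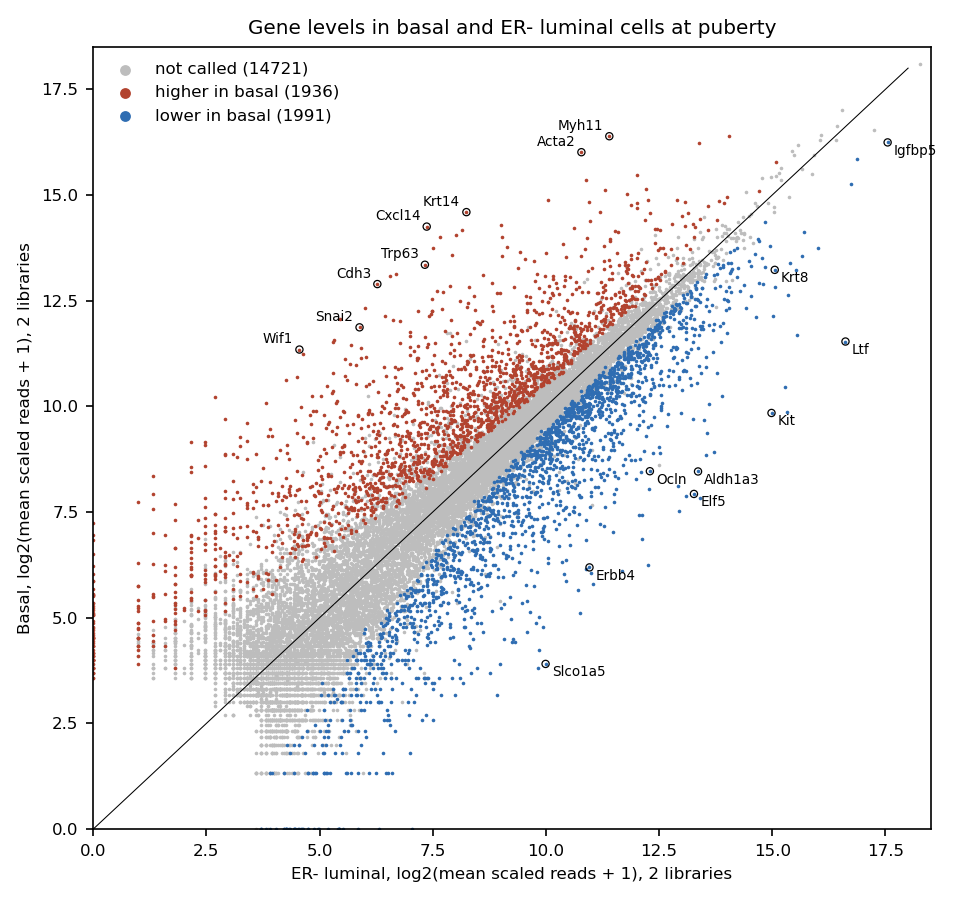
Mean level of each of the 18648 genes in ER- luminal (x axis) and basal cells (y axis), as log2 of mean scaled reads + 1 over 2 libraries. Red points are the 1936 genes called higher and blue points the 1991 called lower in basal cells, grey points are not called, the line marks equal levels, and circled genes are named in the text.

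Genes with the largest differences were far lower in the other layer, though not all were near 0 there. The chemokine gene Cxcl14 was at 18713 and 20299 in basal and 240 and 88 in ER- luminal libraries, a 119-fold ratio of means (log2 difference 7.06 ± 0.60). Tenm2, a teneurin adhesion protein, was at 8656 and 8616 against 150 and 36 (6.85 ± 0.61). Irx4, a homeobox factor, was at 2571 and 2284 against 33 and 15 (6.70 ± 0.56), and P-cadherin Cdh3 at 7843 and 7360 against 107 and 46 (6.74 ± 0.74). The fatty acid elongase Elovl4 reached 528 and 619 in basal libraries against 7 and 0. The cytokine Il17b reached 520 and 408 against 13 and 0. ER- levels that low amount to a few reads, so the fitted differences of Elovl4 and Il17b depend on the 1 added before the log.

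Among the largest differences in the luminal direction, the nucleoside transporter Slc28a3 was at 41 and 109 in basal and 4414 and 5354 in ER- luminal libraries (-6.16 ± 0.63). The organic anion transporter Slco1a5 was at 11 and 17 against 951 and 1084 (-6.11 ± 0.39), and the glucose cotransporter Slc5a1 at 21 and 46 against 1683 and 1763 (-5.74 ± 0.64). Mucin 4 (Muc4) was at 9 and 17 against 603 and 1211 (-5.99 ± 0.61), and the antibody transporter Pigr at 15 and 21 against 685 and 1144 (-5.56 ± 1.02). Fcgbp, a mucus protein, was among the more abundant ones at 497 and 1377 against 35720 and 46254 (-5.62 ± 0.38). Plet1os, at 39 and 97 against 2298 and 4266, is antisense to Plet1, and reads of that pair could not be told apart. Both basal libraries lay below both ER- luminal ones for each gene named in this paragraph, but the rule that picked the largest differences required this.

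The small remainder of each layer's transcripts in the other differed by library. Krt5 stood at 1.94% of its basal mean in ER- luminal library 1 and 0.504% in library 2. Over the 18 basal markers the median remainder was 5.50% and 1.06%, and in the ER+ luminal libraries 4.28% and 0.463%. Conversely, the 13 called ER- luminal markers stood at a median of 2.25% of their ER- mean in basal library 1 and 5.20% in library 2. ER- luminal library 1 thus carried more basal transcript than library 2, and basal library 2 more luminal transcript than library 1. The sum of 14 ER+ luminal markers was likewise 12075 in basal library 1 and 44851 in library 2, against 26371 and 23465 in the ER- libraries. The part of these remainders in the differences was not tested.

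**Figure D3:**
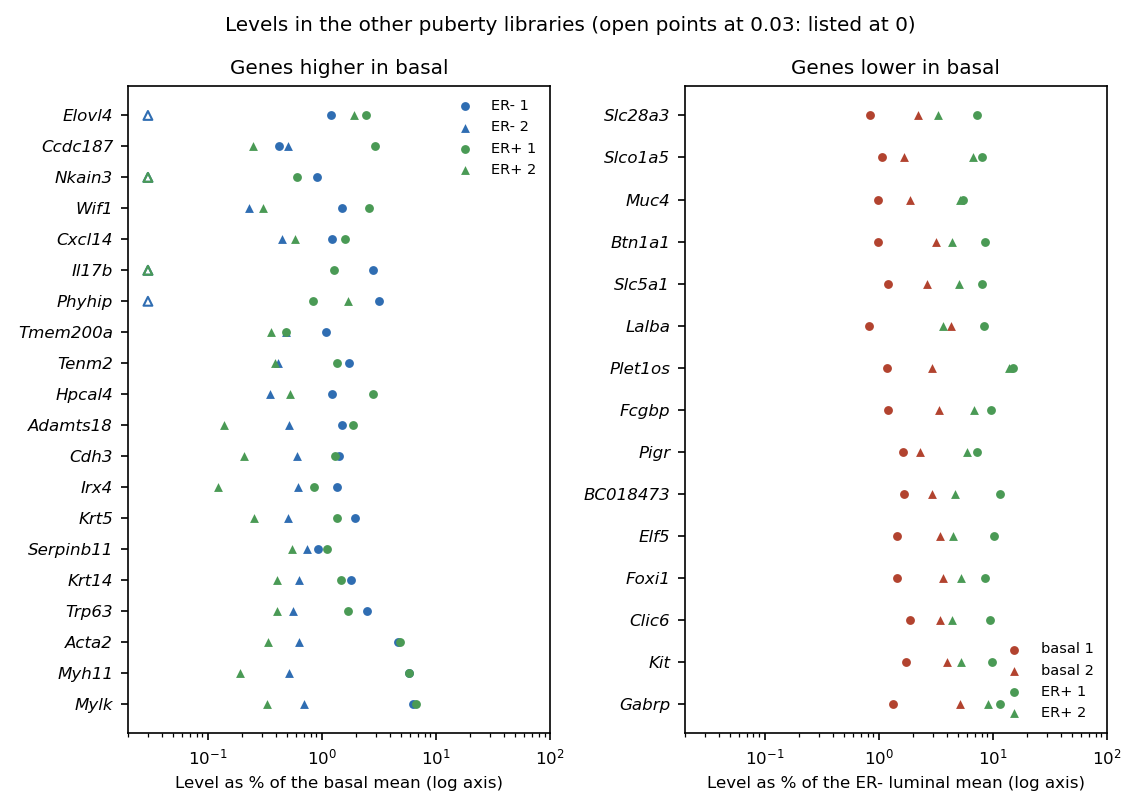
Level of genes in the other puberty libraries as a percentage (log axis) of the basal mean (left: 15 genes with the largest rises, 5 basal genes and Krt5) or of the ER- luminal mean (right: 15 genes with the largest falls). In the left panel ER- library 1 (circles) lies to the right of library 2 (triangles) for nearly all genes, Ccdc187 being an exception, and in the right panel basal library 2 lies to the right of library 1.

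Genes of the contractile apparatus were mostly higher in basal cells. Of 21, 17 were called higher and 0 lower, with a median difference of 4.40 and all 21 positive. Smooth muscle actin Acta2 was at 69716 and 62418 in basal libraries against 3103 and 420 in ER- luminal ones (5.85 ± 1.12, limma adjusted p = 0.00495, a call lost when the puberty libraries were fitted alone). Calponin Cnn1, which binds actin, was at 14488 and 12865 against 298 and 65, and tropomyosin Tpm2 at 17523 and 15409 against 882 and 165 (5.42 ± 0.71). The oxytocin receptor Oxtr, through which milk ejection is triggered, was at 49019 and 34268 against 2177 and 1619 (4.45 ± 0.57). Smooth muscle myosin Myh11 was the most abundant of the list at 93350 and 78319, against 4959 and 444.

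The 2 ER- luminal libraries differed widely in contractile transcripts. Acta2 stood at 4.70% of its basal mean in library 1 and 0.636% in library 2, and Myh11 at 5.78% and 0.517%. The same split ran through the ER+ luminal libraries, with Myh11 at 5057 and 166. With a spread this wide, Myh11 (5.85 ± 1.42) kept adjusted p = 0.018 with all libraries, and had 0.0996, 0.0754 and 0.156 without basal library 1, basal library 2 and ER- library 2. With each of these 3 libraries left out in turn, 10 genes of the list were called, and without ER- library 1, 18 were. Myocardin (Myocd), a coactivator of smooth muscle genes, was at 149 and 174 against 134 and 6 and did not pass (adjusted p = 0.52). Its partner Srf, at 2731 and 2816 against 2240 and 2114, did not pass either (adjusted p = 0.155).

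Summed pericyte markers, a contractile cell type of vessels, were 15021 and 16732 in basal libraries and 11737 and 5965 in ER- luminal ones. Of the 9, 3 were called higher and 1 lower, with 1 higher without basal library 1 or ER- library 2 and 5 without ER- library 1. Rgs5 stood at 4068 and 5783 against 2086 and 307. Summed endothelial markers were 12369 and 19415 against 12610 and 2604, with 1 of 13 called higher and none at 0. That gene, Eng, had adjusted p = 0.0392, and 0.0736, 0.214 and 0.299 without basal library 1, basal library 2 and ER- library 2. Endothelial and adipocyte sums were lowest, among the 4 libraries, in ER- luminal library 2, where Acta2 and Myh11 were lowest too. The part of vessel cells in the contractile differences was not tested.

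Most basement membrane genes were higher in basal cells. Of 23 laminin, collagen IV and related genes, 19 were called higher and 0 lower, with a median difference of 2.58. Lama1, chain of the laminin of early basement membranes, was at 20440 and 13644 against 322 and 190 (6.07 ± 0.59). Collagen VII (Col7a1), which forms anchoring fibrils, was at 10145 and 7707 against 140 and 65 (6.52 ± 0.37), and collagen XVII (Col17a1), part of the hemidesmosome, at 19715 and 17158 against 359 and 207 (6.07 ± 0.39). Lama3 and Lamb3, which encode chains of the laminin that hemidesmosomes bind, were higher by 2.59 ± 0.48 and 2.85 ± 0.24. Lamb3 had 7729 and 8766 in basal libraries against 1175 and 1113. Collagen IV chains were abundant, Col4a1 at 48218 and 42691 against 5638 and 2609 (3.56 ± 0.41). Nid1, at 5591 and 6694 against 1533 and 6499, overlapped between groups and did not pass.

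Receptors for that matrix were listed with the hemidesmosome. Of 19 integrin and hemidesmosome genes, 12 were called higher and 1 lower, with a median of 1.21. The laminin receptor chain Itga6, used to sort basal cells, was at 32377 and 28047 against 8621 and 6524 (2.01 ± 0.17). Itga3 was higher by 1.44 ± 0.17, the common β chain Itgb1 by 0.94 ± 0.13 and dystroglycan Dag1 by 1.64 ± 0.14. Dst, whose products include a hemidesmosome plakin, was at 96662 and 76734 against 18108 and 15690 (2.35 ± 0.38). Itgb6, an epithelial integrin that activates TGF-β, was the gene called lower, at 213 and 209 against 746 and 832 (-1.90 ± 0.27). In ER- luminal libraries 1 and 2, the 12 receptor genes called higher stood at a median of 36.6% and 32.3% of their basal mean, and the 19 basement membrane genes called higher at 15.6% and 13.5%; the lists were not tested against each other.

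Other matrix genes were mostly higher in basal cells, though not all were called. Of 32, 16 were called higher and 1 lower, with a median of 2.055 and 30 positive. Spon2 was at 5124 and 3955 against 87 and 86 (5.69 ± 0.45), Sparc, a matricellular protein, at 39562 and 32466 against 4293 and 5250 (2.92 ± 0.21), and biglycan (Bgn) at 14068 and 11164 against 1312 and 721 (3.69 ± 0.28). Ltbp1, which holds latent TGF-β in the matrix, was lower, at 1548 and 1342 against 6740 and 7955 (-2.34 ± 0.21). The fibrillar collagens did not pass: Col1a1 was at 15843 and 15889 against 3959 and 15871, and Col3a1 at 17732 and 21670 against 4691 and 26895. Fibroblast markers, which include both collagens, summed to 83218 and 78685 in basal and 17368 and 79378 in ER- luminal libraries. None of the 11 was called by limma in either direction and none was at 0, and 3 were called higher without ER- library 2. The sum in ER- luminal library 2 was close to those of the basal libraries, and the sum in library 1 was far lower. Its part in the matrix differences was not tested.

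Among matrix proteases and their inhibitors, 13 of 25 were called higher and 2 lower. Adamts18 was at 4993 and 3554 against 64 and 22 (6.77 ± 0.94). The plasminogen activators Plat and Plau were higher by 2.28 ± 0.47 and 2.21 ± 0.30. Mmp15 and Mmp16, membrane-bound metalloproteases, were lower by log2 differences of -2.11 ± 0.25 and -2.35 ± 0.51. Without basal library 1 the count called higher was 8.

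**Figure D4:**
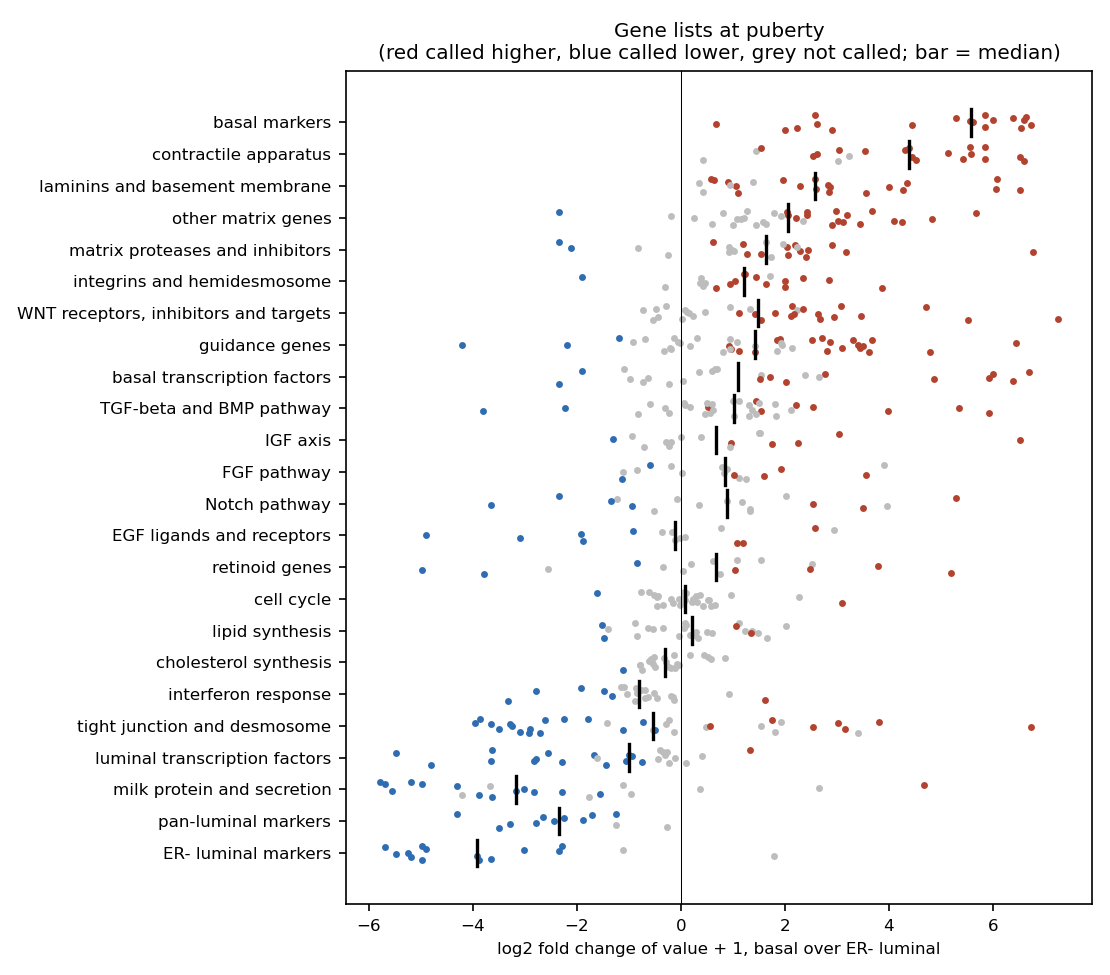
Log2 difference of value + 1 between basal and ER- luminal cells at puberty for the genes of 24 lists, 1 point per gene. Red points were called higher and blue points lower, grey points were not called, and black bars are list medians, which run from 5.59 for basal markers to -3.92 for ER- luminal markers.

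Of 24 basal transcription factors, 9 were called higher and 2 lower. Snai2 (Slug), a repressor of epithelial genes, was at 4285 and 3192 against 72 and 44 (6.01 ± 0.43, limma adjusted p = 3.09e-07). Id4, an inhibitor of helix-loop-helix factors, was at 2990 and 2568 against 74 and 27 (5.92 ± 0.77), and Egr2 at 3713 and 7364 against 843 and 693 (2.77 ± 0.34). Sox10 and Sox9, both linked to mammary stem and progenitor cells, did not pass: Sox10 was at 4540 and 2965 against 4199 and 4377, and Sox9 at 5303 and 7059 against 9105 and 9941. Foxc1 (-2.34 ± 0.37) and the WNT effector Tcf7l2 (-1.90 ± 0.22) were lower in basal cells although the list held them as basal factors. Tcf7l2 was at 3297 and 3825 against 12572 and 13985, while its relatives Tcf7l1 and Tcf7 were higher in basal cells by 1.72 ± 0.38 and 2.35 ± 0.33.

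Of 25 luminal factors, 14 were called lower and 1 higher. Beside Elf5, the ETS factor Ehf was at 278 and 640 against 11789 and 11877 (-4.81 ± 0.59), and Elf3 at 234 and 623 against 2504 and 2802 (-2.79 ± 0.35). Foxi1, a forkhead factor known from ion-transporting cells and not part of this list, was at 31 and 78 against 2263 and 1977 (-5.40 ± 0.62). The grainyhead gene Tfcp2l1 was at 258 and 844 against 3345 and 3254 (-2.82 ± 0.44). Tfap2c was the factor called higher, at 4173 and 3232 against 1578 and 1339 (1.34 ± 0.24). The estrogen receptor gene Esr1, at 840 and 3752 against 2152 and 2032, did not pass. Gata3, at 2974 and 3736 against 3732 and 4349, had a difference of -0.27 ± 0.22 (adjusted p = 0.467).

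Of 33 junction genes, 16 were called lower in basal cells and 7 higher, the latter 4 without basal library 1 or ER- library 2. Occludin (Ocln) was at 207 and 498 against 4939 and 5119 (-3.96 ± 0.30), tricellulin (Marveld2) at 104 and 287 against 2613 and 2435 (-3.86 ± 0.36), and Cldn7 at 149 and 485 against 3304 and 2821 (-3.50 ± 0.41). Crb3, a polarity protein of the apical membrane, was at 33 and 69 against 410 and 334 (-2.93 ± 0.35). E-cadherin (Cdh1) was lower by less, at 3776 and 6426 against 17000 and 16795 (-1.78 ± 0.23), whereas P-cadherin was higher as given above. Perp, a desmosomal membrane protein, was at 8634 and 8488 against 1500 and 1446 (2.54 ± 0.17). Desmosome genes went both ways: the plakophilin Pkp2 was at 122 and 272 against 1564 and 1579 (-3.10 ± 0.33), and Pkp3 was called higher and Pkp1 lower. The scaffold Tjp1, at 7684 and 8294 against 9660 and 9134, did not pass (-0.23 ± 0.12, adjusted p = 0.223). Connexin 43 (Gja1), the myoepithelial gap junction protein, was at 7950 and 8045 against 1093 and 627 (3.27 ± 0.23).

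The 16 junction genes called lower were at a median of 8.89% and 20.6% of the ER- luminal mean in basal libraries 1 and 2, and at 72.2% and 81.1% in the 2 ER+ luminal libraries. Krt8, a keratin of the simple epithelium, was at 6678 and 12512 in basal, 30919 and 37126 in ER- luminal and 35830 and 39122 in ER+ luminal libraries. By contrast, the ER- luminal markers were at 11.1% and 8.91% in the ER+ luminal libraries. These shares are descriptions, and the ER+ luminal group was not tested here.

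Promoters of the junction, pan-luminal and luminal factor genes called lower were searched for CACCTG, the E-box that Snai2 and related repressors bind in Cdh1 and other epithelial genes. Of 36 such genes, 22 had a promoter in the RefSeq table (GRCm38.p6), and in 16 the 250 bases before a start held CACCTG on either strand. Those bases held none in Cgn, Cldn1, Cldn3, Grhl1, Marveld2 and Stat5b, and Cdh1 itself had no promoter there. The sequences below show this for 5 genes: each is the 120 bases before a start, 5′ to 3′ on the gene's strand, with the E-box or its reverse complement CAGGTG in capitals.
Crb3, chr17:57062081-57062200, + strand: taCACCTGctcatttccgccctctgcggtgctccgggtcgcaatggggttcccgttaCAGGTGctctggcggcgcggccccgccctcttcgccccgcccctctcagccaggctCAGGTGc
Cldn7, chr11:69965301-69965420, + strand: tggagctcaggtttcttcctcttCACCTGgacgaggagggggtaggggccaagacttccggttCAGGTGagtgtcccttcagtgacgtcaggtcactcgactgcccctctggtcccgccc
Tfcp2l1, chr1:118627825-118627944, + strand: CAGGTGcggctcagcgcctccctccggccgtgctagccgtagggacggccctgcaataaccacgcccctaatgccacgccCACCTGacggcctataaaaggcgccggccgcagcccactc
Elf5, chr2:103411978-103412097, + strand: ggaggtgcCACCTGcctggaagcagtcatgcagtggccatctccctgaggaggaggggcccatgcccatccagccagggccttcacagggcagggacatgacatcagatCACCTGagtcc
Muc1, chr3:89228936-89229055, + strand: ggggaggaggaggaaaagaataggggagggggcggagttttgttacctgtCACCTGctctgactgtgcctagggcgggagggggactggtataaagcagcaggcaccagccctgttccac

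Crb3 held 3 copies in this window and the other genes shown held 1 or 2. Cldn7 and Elf5 each have a second start in the table with no copy in its 250 bases. These genes and the motif were chosen with their values seen, so the match is a description. Over whole 300-base promoters (250 before to 50 after the start), CACCTG on either strand was in 30% of 1308 genes called lower, 23.1% of 1420 called higher and 20.8% of 9134 not called, and in 22.6% of all 27025 genes in the table. Promoters differed in base composition, with a median GC of 61.3%, 62.3% and 59.7% in the called lower, called higher and not called genes. In 3 classes of GC content, split at 56% and 64%, the shares for genes called lower and not called were 29% and 19.1%, 36.1% and 22.9%, and 25.8% and 20.4%. Genes called higher had 23.2%, 24.8% and 21.7% in the same classes. For comparison, the TEAD motif GGAATG was in 16.2%, 17.7% and 14.4% of called lower, called higher and not called genes, and the ETS motif CCGGAAG in 15.7%, 9.08% and 19%. In the same order, TGANTCA was in 6.96%, 7.61% and 6.72%, and the CArG box in 1.76%, 2.39% and 1.4%. A match in these letters does not show that a factor binds there.

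Of 21 milk genes, 13 were called lower in basal cells and 1 higher, with a median of -3.17. The whey protein lactoferrin (Ltf) was at 1855 and 4070 in basal and 87023 and 113955 in ER- luminal libraries (-5.18 ± 0.48), and κ-casein (Csn3) at 2853 and 3748 against 43935 and 52225 (-3.87 ± 0.75). Butyrophilin (Btn1a1), of the milk fat globule, was at 108 and 347 against 9107 and 12705 (-5.79 ± 0.69), and α-lactalbumin (Lalba), of lactose synthase, at 37 and 195 against 4047 and 4924 (-5.69 ± 0.77). Among the calcium-sensitive caseins, Csn2 was below 100 in all 4 libraries, and Csn1s1 at 29 and 53 against 503 and 514 did not pass (adjusted p = 0.235). Csn1s2b was called lower in basal cells, and Csn1s2a did not pass. Slpi, a secreted protease inhibitor, was the gene called higher, at 2915 and 3606 against 111 and 143 (4.67 ± 0.90).

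Lipid and cholesterol synthesis showed few differences. Of 26 lipid genes 2 were called higher and 2 lower, the former 0 without basal library 2 or ER- library 2 and the latter 0 without basal library 1. Of 24 cholesterol genes 1 was lower (Dhcr7). Fatty acid synthase (Fasn) was at 7737 and 13612 against 9947 and 5194. Of 20 endoplasmic reticulum folding genes 3 were lower, Xbp1, Atf4 and Hspa5, with differences from -0.99 to -0.81. Over all members 10.4% were called higher and 10.7% lower. The Dhcr7 call was lost with each library left out in turn (adjusted p 0.0798 to 0.169), and the Hspa5 call without basal library 1 (0.126) or ER- library 1 (0.0899).

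Of 30 WNT receptors, inhibitors and targets, 16 were called higher and 0 lower, with a median of 1.49 and 25 of 30 positive. Frizzled 7 (Fzd7) was at 16843 and 15538 against 2109 and 1746 (3.07 ± 0.19), and Lgr5, an R-spondin receptor and stem cell marker, at 4218 and 3401 against 759 and 486 (2.64 ± 0.46). The feedback target Axin2 was at 558 and 404 against 52 and 34 (3.47 ± 0.40), and Nkd1 at 1502 and 1373 against 99 and 29 (4.71 ± 0.66). The secreted inhibitor Wif1 was at 3061 and 2133 against 39 and 6 (7.26 ± 0.97). The coreceptors did not pass, Lrp5 at 0.02 ± 0.16 and Lrp6 at 0.17 ± 0.17.

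Of 13 WNT ligand and R-spondin genes, Wnt10a, Wnt5a and Wnt11 were called higher and Wnt5b lower, and 3 were called lower without basal library 2. Wnt10a was at 155 and 191 against 9 and 2 (4.98 ± 0.98), and Wnt5a at 3094 and 4013 against 408 and 486 (2.98 ± 0.37). Wnt5b, its closest relative, was at 262 and 416 against 2533 and 2126 (-2.81 ± 0.40). In the ER+ luminal libraries Wnt5a was at 5611 and 6743 and Wnt11 at 342 and 264. Wnt6 was at 556 and 335 against 62 and 23 (adjusted p = 0.0511). Wnt4 and Wnt7b overlapped between groups.

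Of the Notch ligands, Jag1 and Jag2 were called higher in basal cells, and of the receptors, Notch1, Notch2 and Notch3 were called lower. Jag2 was at 5033 and 4287 in basal libraries against 308 and 44 (5.30 ± 1.01) and Jag1 at 4615 and 4684 against 1382 and 458 (2.55 ± 0.45), and Lfng, which modifies the receptors, was higher by 3.51 ± 0.39. Notch1 was at 2972 and 2915 against 15871 and 13901 (-2.33 ± 0.21), Notch2 was lower (-0.94 ± 0.15), and Notch3 was at 1692 and 2800 against 6642 and 4572 (-1.34 ± 0.23). The target Hey1 was at 378 and 571 against 5111 and 6613 (-3.64 ± 0.33). Hes1, another target, did not pass (-0.51 ± 0.21, adjusted p = 0.125), nor did the ligand Dll1, at 3548 and 3243 against 285 and 165 (adjusted p = 0.0723). Of 17 genes in all, 3 were called higher and 4 lower, and each call was kept with any single puberty basal or ER- library left out. The Jag2 call was lost with the puberty libraries alone, and the Notch3 call with the compared groups alone.

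Of 15 EGF-family genes, 3 were called higher and 5 lower, and the count higher was 1 without basal library 1, ER- library 1 or ER- library 2. With all libraries, 20% of the list was called higher and 33.3% lower, against 10.4% and 10.7% of all members. The receptors Erbb4 (43 and 101 against 1941 and 2047, -4.90 ± 0.39), Erbb3 (-1.87 ± 0.24) and Erbb2 (-0.92 ± 0.22) were lower in basal cells. The Erbb2 call had adjusted p = 0.00766, and 0.11 and 0.0654 without basal library 1 and ER- library 1. Egfr was higher, at 9317 and 8001 against 3355 and 4978 (1.08 ± 0.23), with adjusted p = 0.00298, and 0.0569 without ER- library 1. Neuregulin 1 (Nrg1), a ligand of ERBB3 and ERBB4, was at 2666 and 1920 against 414 and 348 (2.57 ± 0.58), with adjusted p = 0.00849, and 0.0737 and 0.0685 without basal library 1 and ER- library 2. The ligand gene Tgfa, at 648 and 602 against 312 and 239 (1.19 ± 0.37, adjusted p = 0.0345), lost its call with each library left out in turn (0.0643 to 0.234). The ligands betacellulin (Btc, -3.10 ± 0.27) and Hbegf (-1.91 ± 0.27) were lower. Amphiregulin (Areg), the ligand that estrogen induces in ER+ cells, was at 416 and 1636 against 535 and 434, and at 8765 and 10309 in ER+ luminal libraries.

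In the FGF list, 4 of 16 genes were called higher and 2 lower, with 1 lower without basal library 1 or either ER- library. With all libraries, 25% of the FGF list was called higher and 12.5% lower, against 10.4% and 10.7% of all members. Fgf1 was at 4285 and 3874 against 435 and 271 (3.56 ± 0.23). The feedback inhibitors went different ways, Spry1 higher by 1.93 ± 0.26 and Spry2 at 2070 and 2357 against 4824 and 4836 (-1.13 ± 0.16). Of 33 TGF-β and BMP genes, 8 were called higher and 2 lower, with 5 higher without basal library 1. With all libraries, 24.2% of the TGF-β and BMP list was called higher and 6.06% lower. Bmp7 was at 2063 and 2056 against 54 and 46 (5.34 ± 0.49), the antagonist follistatin (Fst) at 2433 and 3345 against 136 and 234 (3.99 ± 0.34), and the coreceptor Tgfbr3 at 18853 and 16792 against 2832 and 3302 (2.54 ± 0.17). The activin subunit Inhbb (471 and 1651 against 13010 and 11781, -3.81 ± 0.46) and Tgfb3 (-2.23 ± 0.24) were lower. The receptors Tgfbr1, Tgfbr2 and Bmpr1a did not pass.

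IGF binding proteins divided by member. Igfbp2 was at 1879 and 1459 against 35 and 8 (6.52 ± 0.74), and Igfbp3 at 7579 and 4920 against 658 and 841 (3.04 ± 0.42); Igfbp4 and Igfbp7 were higher by 1.75 ± 0.30 and 2.26 ± 0.40. Igfbp5 was abundant in both layers and lower in basal cells, at 82540 and 72595 against 177058 and 206171 (-1.30 ± 0.28, adjusted p = 0.0055, and 0.0538 without ER- library 2). The receptor Igf1r did not pass (0.39 ± 0.22).

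Guidance genes, first known from axons and later from duct growth, included 19 called higher and 3 lower of 41. Slit2 and Slit3 were higher by 3.51 ± 0.37 and 2.53 ± 0.34, as were their receptors Robo1 (2220 and 2054 against 380 and 225, 2.86 ± 0.28) and Robo2 (4.79 ± 0.66). Netrin 1 (Ntn1) was lower, at 518 and 809 against 11348 and 12682 (-4.21 ± 0.39), and its receptor neogenin (Neo1) higher by 0.93 ± 0.19. Ephb1 (6.45 ± 1.01) and the ephrin Efnb3 (3.67 ± 0.69) were higher, and Epha2 (-2.20 ± 0.24) and its ligand Efna1 (-1.19 ± 0.16) lower.

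Of 25 chemokine and cytokine genes, 3 (12%) were called higher and 6 (24%) lower, against 10.4% and 10.7% of all members. The count lower was 3 without basal library 1 or ER- library 2, and the count higher was 6 without ER- library 2. Cxcl12 was at 13267 and 6382 against 878 and 453 (3.86 ± 0.63). Leukemia inhibitory factor (Lif), a STAT3 activator, was at 126 and 216 against 4377 and 4489 (-4.74 ± 0.56), Csf3 at 140 and 155 against 1808 and 679 (-2.90 ± 0.46), and Cxcl1 at 2086 and 3163 against 8273 and 6622 (-1.53 ± 0.26). Immune cell markers summed to 1148 and 4961 in basal and 1707 and 1358 in ER- luminal libraries, and none of 22 was called by limma, against 5 called higher without basal library 1. Cd3d was at 0 in basal library 1, and Cd4 was at 0 in ER- luminal library 2.

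Retinoid genes were also shared out: the retinaldehyde dehydrogenase Aldh1a3 was at 236 and 466 against 9803 and 11221 (-4.98 ± 0.41) and the retinoic acid carrier Crabp2 at 59 and 49 against 728 and 783 (-3.79 ± 0.38). The retinol dehydrogenase Rdh10 was higher by 1.05 ± 0.24. In the retinoid list 25% of genes were called higher and 18.8% lower, against 10.4% and 10.7% of all members. Of 16 genes, 4 were higher and 3 lower, with 2 higher without basal library 1 or ER- library 2. Cyp26b1, which degrades retinoic acid, was at 491 and 153 against 64 and 36 (2.49 ± 0.61, adjusted p = 0.00855), with 0.174 without basal library 1 and 0.111 without ER- library 2.

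Few proliferation genes passed the test. Of 30 cell cycle genes, Ccnd2 was called higher and Ccnd1 lower, and the median was 0.07. Mki67 was at 3909 and 2154 in basal and 4672 and 1641 in ER- luminal libraries, so library 1 exceeded library 2 in each group by more than the groups differed. Cyclin D2 (Ccnd2) was at 5733 and 5465 against 1250 and 341 (3.10 ± 0.80), and cyclin D1 (Ccnd1) at 1106 and 1425 against 4609 and 3214 (-1.62 ± 0.40). The Ccnd2 call (adjusted p = 0.0212) was lost without basal library 1 (0.107), basal library 2 (0.0865) or ER- library 2 (0.184). The Ccnd1 call (adjusted p = 0.0152) was lost without basal library 1 (0.117) or ER- library 1 (0.108). Gas1, a growth arrest protein, was at 13088 and 10844 against 494 and 555 (4.51 ± 0.20, adjusted p = 5.43e-09).

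Of 21 immediate-early genes, 2 (9.52%) were called higher and 6 (28.6%) lower, against 10.4% and 10.7% of all members, with a median of -0.12. The count lower was 3 without basal library 1 or ER- library 2 and 9 without basal library 2, and the count higher ran from 1 to 3. Fos, Jun and Egr1 did not pass, with Fos at 66344 and 93957 against 59723 and 75624. Klf6 was at 12547 and 23347 against 53086 and 53072 (-1.63 ± 0.29) and Fosl1 at 230 and 496 against 1615 and 2012 (-2.41 ± 0.36). Of 22 interferon response genes, 5 were lower and 1 higher, with 3 lower without basal library 1 or ER- library 2 and 2 higher without ER- library 1. With all libraries, 22.7% of the interferon list was called lower and 4.5% higher. Ifi44 was at 564 and 945 against 4170 and 6017 (-2.78 ± 0.47) and Irf7 at 885 and 1513 against 3318 and 5819 (-1.92 ± 0.34), while Isg15 did not pass.

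The same difference was then measured in adults and at pregnancy. Of the 1936 genes higher at puberty, 1731 (89.4%) were positive in adults and 1781 (92%) at pregnancy, against 47.8% and 38.7% of all 18648 members. There, 1019 (52.6%) and 1109 (57.3%) were called higher, against 11.6% and 9.3% of all members. Of the 1991 lower genes, 1672 (84%) and 1887 (94.8%) were negative, against 52% and 60.8% of all members. Of these, 591 (29.7%) and 1044 (52.4%) were called lower, against 7.42% and 12.1% of all members. By limma tests of the stage difference itself, 140 genes (0.751%) differed between puberty and pregnancy, 44 (0.236%) upward and 96 (0.515%) downward at puberty. Between puberty and adults 692 (3.71%) differed, 193 (1.03%) upward and 499 (2.68%) downward. The median stage difference over all members was 0.15 against pregnancy, and quantile normalization moved it to 0.01. Those counts depend on single libraries, with 10 for pregnancy and 230 for adults without puberty ER- luminal library 2. For pregnancy they were 40 without puberty basal library 1, 33 and 19 without pregnancy basal libraries 1 and 2, and 11 without pregnancy ER- library 2. For adults they were 248 without puberty basal library 1, 377 without puberty ER- library 1, 338 without adult basal library 2 and 343 without adult ER- library 1.

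For basal and ER- luminal markers the median difference lay farther from 0 at puberty. Median differences of the 18 basal markers were 5.59 at puberty, 5.27 in adults and 3.20 at pregnancy, and those of the 15 ER- luminal markers -3.92, -1.27 and -1.66. Single tests of the stage difference passed for 2 basal markers against adults and 1 against pregnancy, and for 7 and 4 ER- markers. Krt5 in ER- luminal cells was at 320 and 83 at puberty, 198 and 232 in adults and 1047 and 1127 at pregnancy, and its stage difference of 3.39 ± 1.01 did not pass (adjusted p = 0.208). Kit in basal cells was at 558 and 1277 at puberty, 5567 and 4125 in adults and 2549 and 4179 at pregnancy. Its difference from adults was -3.25 ± 0.71 (adjusted p = 0.0341), and 6 of 8 fits that each left out 1 library lost that call, with adjusted p up to 0.124. Depth also differed, at 4233225 to 7900557 reads in adult basal, 2910657 and 3165234 in adult ER- luminal and 5280331 to 6033669 in the pregnancy libraries compared. In pregnancy ER- luminal library 2, 99.4% of recovered reads at values up to 50 were even numbers, against 34.9% to 41.7% in the other libraries, so its estimated depth of 5280331 is uncertain and may be too high. Neither the part of depth nor that of each layer's transcripts carried into the other was tested.

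**Figure D5:**
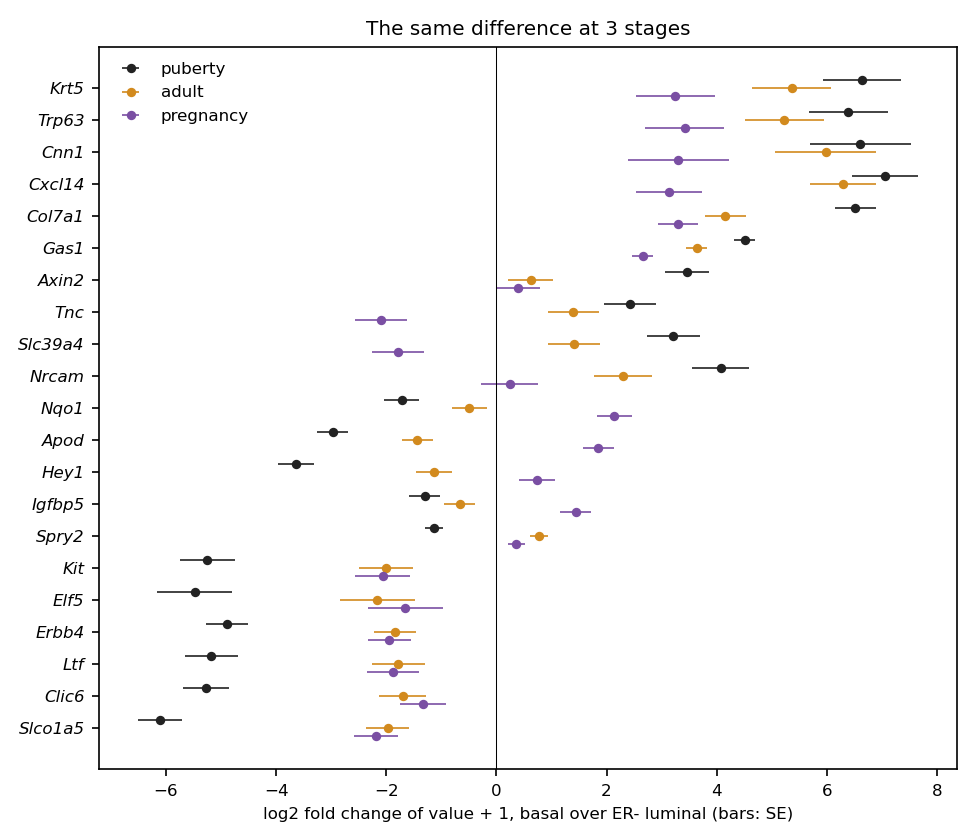
Log2 difference of value + 1 between basal and ER- luminal cells for 21 genes at puberty (black), in adults (orange) and at pregnancy (purple), with standard errors. Krt5 and Trp63 keep their sign with smaller values at pregnancy, and Kit, Elf5 and Ltf are most negative at puberty. Genes with the opposite sign at pregnancy include Tnc, Slc39a4, Nqo1, Apod, Hey1 and Igfbp5.

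For some genes the higher layer differed by stage. Apolipoprotein D (Apod), a lipid carrier, was at 1871 and 1661 in basal and 16508 and 11647 in ER- luminal cells at puberty, but at 389 and 351 against 98 and 106 at pregnancy. Its stage difference was called in all 8 fits that left out 1 library. Igfbp5 was at 102958 and 103009 in basal and 45938 and 31304 in ER- luminal cells at pregnancy, the reverse of puberty, with a stage difference of -2.74 ± 0.39 (adjusted p = 0.0108, and 0.0572, 0.0648 and 0.0728 without pregnancy basal library 2, pregnancy ER- library 2 and puberty ER- library 2). Tenascin C (Tnc), a matrix protein, was at 1826 and 1574 against 373 and 265 at puberty and 844 and 1222 against 3560 and 5317 at pregnancy. The Tnc stage call was lost without pregnancy basal library 1 (0.0554), pregnancy ER- library 2 (0.0648) or puberty ER- library 2 (0.0728). Spry2, higher in ER- luminal cells at puberty, was at 3462 and 3540 in basal against 2250 and 1861 in adults, with a stage difference of -1.90 ± 0.23 (adjusted p = 0.000359), called in all 8 such fits. In all, 17 genes were called at both puberty and pregnancy with opposite signs, and 48 at both puberty and adulthood.

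The WNT target Axin2 was called higher in basal cells at puberty and was not called in adults or at pregnancy. It was at 184 and 108 in basal against 89 and 94 in ER- luminal cells in adults, and at 425 and 365 against 286 and 316 at pregnancy. The stage differences were 2.85 ± 0.57 from adults (adjusted p = 0.0129) and 3.08 ± 0.57 from pregnancy (adjusted p = 0.0205). Leaving out single libraries lost 3 of 8 calls against adults (adjusted p up to 0.0724) and 5 of 8 against pregnancy (up to 0.14). Gas1, Col7a1 and Col17a1 were higher in basal cells at each stage, and each had a stage difference called against pregnancy. Those calls were kept in 5, 3 and 1 of 8 fits that left out 1 library, for Gas1, Col7a1 and Col17a1. Col7a1 in ER- luminal cells was at 140 and 65 at puberty and 1262 and 1454 at pregnancy, with 10145 and 7707 and 13463 and 13226 in basal cells.

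Lalba and Btn1a1 of the milk list, and the mucus gene Fcgbp, had stage differences called against adults. Lalba was at 1000 and 849 in adult basal cells against 532 and 1015 in adult ER- luminal cells, and its stage difference was -6.02 ± 1.08 (adjusted p = 0.0149). Btn1a1 was at 6989 and 3033 against 4506 and 6359 in adults (stage difference -5.57 ± 0.98, adjusted p = 0.0152), and Fcgbp at 20239 and 21169 against 26277 and 28011 (-5.23 ± 0.54, adjusted p = 0.000572). Csn2, low at puberty, was at 77881 and 6854 in adult basal and 6053 and 546 in adult ER- luminal libraries. Levels of these genes in the adult basal libraries were thus near or above those in the adult ER- luminal ones. The part of luminal transcript carried into the basal libraries in these stage differences was not tested. Leaving out 1 library kept the Lalba stage call in 6 of 8 fits, the Btn1a1 call in 5 and the Fcgbp call in 8. For the 21 milk genes the median difference was -0.11 in adults and -1.16 at pregnancy, and the stage difference passed for 5 and 1 of them.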

How the data were processed

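RNA of sorted cells was purified with RNeasy micro kits and Ovation Solo was used for the libraries, per the labels' protocols. Per gene and library, the authors deposited a whole-number signal in a single table. The genome GRCm38/mm10 and the tools STAR, Picard and HTSeq come from the submitters' processing notes, and no source used here gives versions, settings, strand use or annotation release. Since totals lay near 20000000 in each library and low values formed steps, the signal was taken as reads scaled to that total and rounded up. Inverting that rounding returned 99.8% to 99.9% of non-zero values in the 4 libraries compared. A stricter test for whole reads failed in them, so depths and count models rest on inferred rounding. Among 46868 rows, 179 gene IDs had more than 1 row (790 rows), of which the row with the highest total was kept. Values of overlapping and antisense genes are uncertain.

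limma 3.58.1 (R 4.3.3, trend and robust) was fitted to log2(value + 1) over 18 libraries, with a mean per group, for the 22315 genes that reached 10 in 2 or more libraries, with Benjamini-Hochberg adjustment. Tests are 2-sided at an adjusted p under 0.05. On simulated data with 22315 genes, 11 of 100 genes with a 2-fold change were called in this comparison, as were 82 of 100 with a 4-fold change and 1 unchanged gene. In the simulation no other genes changed, the changed genes were drawn above a minimum level, and all genes shared the same dispersion (spread between libraries). In the data 21.1% of members were called, so these recovery figures may not carry over. The 2-fold figure means that genes not called may still differ. Alternatives were other pseudocounts, filters, scalings and variance settings, a replicate block, fewer groups, each compared library left out, and edgeR 4.0.16 and DESeq2 1.42.0 on recovered reads.

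Members, the 40 gene lists, alternatives and motifs were chosen with earlier results of these data known. Named genes were 5 markers, in each direction the 15 called genes of largest difference whose libraries did not overlap and whose higher mean was over 297, up to 5 called genes per list and direction, and 5 per direction for each stage difference. Ribosomal, mitochondrial, immunoglobulin and predicted genes were not eligible. Some genes are not reported here. The text prints a part of the named genes, and list members outside the rule were named after their values were seen. Positions are from GENCODE vM21. Tables were made with pandas 2.3.3 and numpy 2.4.6 in Python 3.11.15, and plots with matplotlib 3.10.9.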

Additional observations from a re-analysis of the deposited data

Results flagged for a closer look

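Of the basal against ER- luminal differences, those of the 19 genes below differed between stages by a limma test of the difference itself, and were among the 5 largest such differences per direction and stage. Values are log2, puberty minus the other stage.

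Against pregnancy, Slc39a4 (5.01), a zinc importer, and Tnc (4.53) were higher in basal cells at puberty and higher in ER- luminal cells at pregnancy. The adhesion gene Nrcam (3.83), Rhbdl3 (3.33) and Col7a1 (3.22) had larger basal excess at puberty. Apod (-4.82) and the quinone reductase Nqo1 (-3.86) were higher in ER- luminal cells at puberty and higher in basal cells at pregnancy. Hey1 (-4.38) was higher in ER- luminal cells at puberty and not called at pregnancy, where it was at 320 and 269 in basal and 196 and 158 in ER- luminal cells. Clic6 (-3.94) and Slco1a5 (-3.92) kept their direction with a larger difference at puberty.

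Against adults, Siglec1 (5.72), a macrophage gene, and the alarmin gene Il33 (5.56) were not called at puberty and were higher in ER- luminal cells in adults, with Il33 at 63 and 85 in basal and 3347 and 1153 in ER- luminal cells. Hpse2 (4.31) and Ankrd6 (3.35) were higher in basal cells at puberty.

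Tead2 (-10.97), Sgsm3 (-9.58), Ltbp4 (-9.19) and Map2k7 (-8.63) were listed at 0 in all 4 adult luminal libraries and had 274 or more in every puberty and pregnancy library of either layer. Mia2 (-7.21) was at 7 and 32 in the adult ER- luminal libraries. At puberty Tead2 was lower in basal cells, at 402 and 644 against 1568 and 1607. Sgsm3 and Map2k7 did not pass at puberty and Ltbp4 was higher in basal cells, at 5739 and 5576 against 1552 and 544. Map2k7 and Mia2 each have several rows in the table with differing values. The adult luminal libraries are also the shallowest, at 2406221 to 3165234 reads. The part of depth or of library handling in these values was not tested.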

How the results depend on the processing

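The 3927 calls at puberty numbered 3384 to 5229 under the other pseudocounts, filters, scalings, subsets and count models, the replicate block and the fit without trend and robust settings, and 5969 with array weights. Leaving out 1 library gave 2098 to 2810. Of the called genes, 871 higher and 872 lower were called without each library in turn, and 851 and 846 under every alternative. No named gene reversed its direction at puberty: of 205 such genes, 144 stayed on the same side of the threshold in every alternative. Of 20 named stage differences, 10 did.

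Stage differences moved more. The 140 against pregnancy became 39 without trend and robust fitting, 395 with array weights, 520 with the compared groups alone, 284 with edgeR and 693 with DESeq2, and 10 to 187 when 1 library was left out. The 692 against adults became 325 without trend and robust fitting, 358 with the compared groups alone and 1531 with DESeq2, and 230 to 862 when 1 library was left out. The share called higher moved by over 10 points for pregnancy with array weights (185 of 395), the compared groups alone (246 of 520) and the block below, and for adults with DESeq2 (621 of 1531). With 1 library left out it ran from 16.6% to 48% for pregnancy, against 31.4%, and from 20% to 42.6% for adults, against 27.9%. The cause was not tested.

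Puberty basal library 1 and ER- luminal library 1 correlated weakly in their deviations from the group means (r = 0.0776 over 22315 genes). The ER+ luminal libraries were not checked in this way, and the numbers were not taken to pair libraries. Endothelial marker sums were 12610 and 2604 in ER- and 14635 and 3040 in ER+ luminal libraries 1 and 2. Fibroblast marker sums were 17368 and 79378 in ER- and 21810 and 66897 in ER+ libraries. Basal libraries differed from this, at 12369 and 19415 for endothelial and 83218 and 78685 for fibroblast markers. Whether same-numbered libraries share a preparation was not tested. A replicate block gave 4558 calls at puberty, 461 (222 higher) against pregnancy and 1185 against adults. Genes under a few reads in the lower group, at about 2 scaled reads each, have differences set by the value added before the log.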
